A study of Rattus norvegicus with 4 samples.

Results

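Aldehyde dehydrogenases, the enzymes that oxidise aldehydes to carboxylic acids, were followed in cochlear lateral wall of rats given a local infusion of 3-nitropropionic acid (3-NP), which blocks mitochondrial complex II. The genes are 10 named members of the family, Aldh1a1, Aldh1a2, Aldh1l1, Aldh2, Aldh3a1, Aldh3a2, Aldh4a1, Aldh6a1, Aldh7a1 and Aldh9a1, taken with every probe set annotated to their symbols, out of 13810 genes named on either of the array designs used. All 10 had probe sets on the design used at day 1, 11 in all, and 0 of the 10 had one on the design used at day 3. The genes were chosen by their day 1 ratios of 3-NP over saline on these same arrays, so their counts are a description and test nothing. The groups were 3-NP at 300 mM and saline at day 1, and 3-NP at 300 mM and saline at day 3, with 1 array each. All were female Sprague-Dawley rats of 8 to 10 weeks and 180 to 210 g, infused on the left side at the round window niche, which was then covered with gelatin, and in every group the right cochlea had been destroyed. The labels place the dissected tissue both in the upper basal turn and in the second turn without the stria vascularis, and they do not state how many animals an array stands for.

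The family divides by substrate and by compartment. Aldh1a1 and Aldh1a2 make retinoic acid from retinaldehyde. Aldh2, Aldh4a1, Aldh6a1 and Aldh7a1 work in mitochondria, on acetaldehyde and lipid aldehydes, on the proline breakdown product, on the valine and thymine breakdown product, and on the lysine breakdown product, Aldh7a1 being found in the cytosol as well. Aldh1l1 oxidises formyl-tetrahydrofolate in the cytosol, Aldh3a1 and Aldh3a2 clear aromatic, medium-chain and fatty aldehydes in the cytosol and the endoplasmic reticulum, and Aldh9a1 makes a precursor of carnitine. The aldehydes they remove include products of lipid peroxidation, which is why the family is studied in tissue under oxidative stress.

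Values are linear MAS5 signals per probe set as deposited. The median signal was 60.7 on the 3-NP array and 44.9 on the saline array at day 1, and 19.97 in 3-NP and 18.7 in saline at day 3. Because the median of 6533 measured genes sat at a log2 ratio of 0.44 at day 1 (0.10 over 3972 genes at day 3), ratios of 3-NP over saline are given relative to that median gene unless called as deposited. A gene was called higher or lower at a relative log2 ratio of at least 1 in size, a 2-fold difference. With 1 array per group there is no replicate error and no test. The only spread available is that between probe sets of the same gene, with an SD of 0.35 for a single log2 ratio at day 1 (733 genes) and 0.44 at day 3 (767 genes), which leaves out animals, dissection and hybridisation. Signal from the 3' end of the Actb control exceeded that from its 5' end 2.53-fold on the 3-NP array and 2.69-fold on the saline array at day 1, and for Gapdh 1.46-fold in 3-NP and 1.34-fold in saline. At day 3 the excess was 2.79-fold in 3-NP and 3.22-fold in saline for Actb, and 1.17-fold in 3-NP and 1.26-fold in saline for Gapdh.

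At day 1, 6 of the 10 genes were at least 2-fold lower in 3-NP than in saline relative to the median gene and 0 were higher. Aldh3a1 stood furthest down, and Aldh1l1, Aldh7a1, Aldh2, Aldh1a1 and Aldh6a1 followed. Aldh1a2 was the one gene clearly above the median gene, at 0.81, while Aldh4a1 lay at 0.10. The median over the 10 genes was -1.16. Among all measured genes 6.47% were lower and 7.76% were higher by the same measure, and since the list was made from this contrast nothing is read from that background. As deposited, 3 of the 10 were lower, Aldh3a1, Aldh1l1 and Aldh7a1, and 1 was higher, Aldh1a2, against 2.62% and 17.9% of measured genes. The scaling thus sets how many genes pass the 2-fold line, but 8 of the 10 had a ratio below 0 with or without centring. In bulk tissue, fewer cells of a type and less RNA per cell cannot be told apart.

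**Figure D1:**
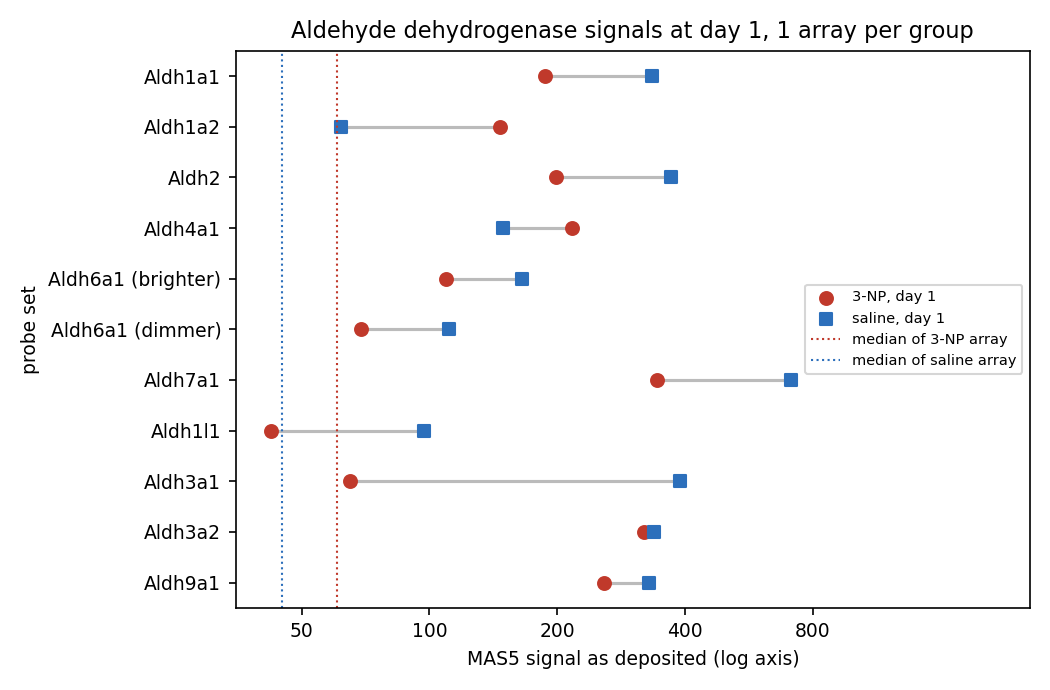
MAS5 signals as deposited (log axis) of the 11 probe sets of the 10 aldehyde dehydrogenase genes on the 3-NP array (circles) and the saline array (squares) at day 1, with each array's median as a dotted line. Circles lie left of squares for every probe set except those of Aldh1a2 and Aldh4a1, and the widest gap is that of Aldh3a1, at 65.1 in 3-NP and 391 in saline.

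**Figure D2:**
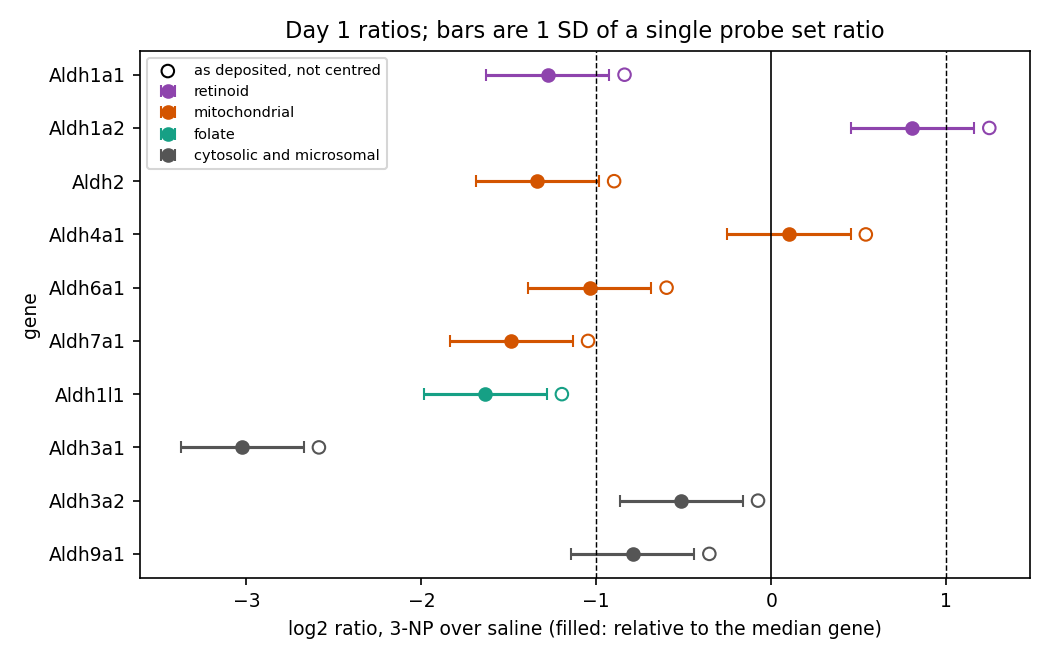
Log2 ratio of 3-NP over saline at day 1 for each gene's brightest probe set, relative to the median gene (filled, with bars of 1 SD of a single probe set ratio, 0.35) and as deposited (open), coloured by role. Dashed lines mark a 2-fold difference. Filled points of 6 genes lie left of the lower line, and Aldh1a2 alone passes the upper line as deposited.

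The retinoid enzymes lay on opposite sides of the median gene. Aldh1a1 had a signal of 187 in 3-NP and 335 in saline, a relative log2 ratio of -1.28, or 2.42-fold lower. Aldh1a2 had 147 in 3-NP and 61.9 in saline, a relative ratio of 0.81, or 1.75-fold higher, and 2.37-fold higher as deposited. Their ratios lay 2.08 apart on the log2 scale, a description of the values by which the genes were chosen. Aldh1a1 has a close rodent paralogue, Aldh1a7, and whether its probe set tells them apart was not examined.

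Promoter sequences of the retinoid pair are shown because these genes share a substrate and had ratios on opposite sides of the median gene. RefSeq sequences on the GRCr8 build, from 250 bases before to 50 bases after the gene's start, matched 8 of the 10 genes, all but Aldh2 and Aldh3a1. Both windows are on the plus strand and are written 5′ to 3′, Aldh1a1 at chr1:227537370-227537669 and Aldh1a2 at chr8:80758391-80758690. Capitals mark matches to ATGCAAAT (the octamer bound by POU-domain factors), to TGACNNNGC (the antioxidant response element core) and to GCGTG (the xenobiotic response element core), each searched on both strands.
Aldh1a1: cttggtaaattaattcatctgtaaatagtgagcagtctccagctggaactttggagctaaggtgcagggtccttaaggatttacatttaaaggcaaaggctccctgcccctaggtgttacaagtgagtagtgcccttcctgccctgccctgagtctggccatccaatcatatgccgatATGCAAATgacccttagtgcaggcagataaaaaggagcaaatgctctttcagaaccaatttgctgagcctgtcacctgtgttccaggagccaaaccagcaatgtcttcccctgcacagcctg
Aldh1a2: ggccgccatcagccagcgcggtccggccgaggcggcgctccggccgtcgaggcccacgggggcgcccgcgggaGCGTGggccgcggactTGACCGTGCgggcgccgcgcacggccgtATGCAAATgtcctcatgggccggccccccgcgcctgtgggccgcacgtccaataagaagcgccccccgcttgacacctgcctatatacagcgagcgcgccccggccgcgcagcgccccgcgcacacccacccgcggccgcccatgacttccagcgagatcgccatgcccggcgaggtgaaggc
The octamer, searched after the sequences had been read, begins 72 bases before the start in Aldh1a1 and 133 bases before it in Aldh1a2, on the plus strand both times. It was found in these 2 of the 8 promoters and in 1.78% of 33469 RefSeq promoters of 300 bases. Since the octamer was picked from these sequences, that share tests nothing. TGACNNNGC was found in 2 of the 8, Aldh1a2 and Aldh9a1, and in 12.1% of all, and GCGTG in 4 of the 8, Aldh1a2, Aldh7a1, Aldh3a2 and Aldh9a1, and in 29.7% of all. In Aldh1a2 the matches do not overlap. These are matches of letters only.

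Around the retinoid enzymes, several genes that make or carry retinoids were higher in 3-NP, with 7 of 13 measured genes above the median gene and 6 below it. Of 36 genes of retinoid transport, metabolism and response, 28 were on the day 1 design and 13 passed the filter on dim signals, of which 4 were higher and 0 lower, with a median of 0.52. As deposited 6 were higher. The share of all measured genes that were higher was 7.76% relative to the median gene and 17.9% as deposited. Rdh10, which makes the retinaldehyde that Aldh1a enzymes use, had 139 in 3-NP and 37.6 in saline, a ratio of 1.45. A second, dimmer probe set that failed the filter had 2.74 in 3-NP, under the floor, and 20.4 in saline. It went the other way, with a bound of at least 1.26-fold lower relative to the median gene, but set no direction as deposited. Crabp2, which carries retinoic acid to its nuclear receptors, was at 1.89, with 635 in 3-NP and 126 in saline. Fabp5, another carrier of retinoic acid and of fatty acids, was at 4.796, and Tgm2, a transglutaminase induced by retinoic acid in several cell types, at 1.44 and 1.20 by its probe sets. Adh4, Adh7, Cyp26a1 and Cyp26b1, which make retinaldehyde or break down retinoic acid, were at the floor in both arrays.

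At day 3, 11 retinoid genes were on the design, 7 were measured, 2 were higher and 0 lower, with a median of 0.35, where 9.21% of all measured genes were higher and 8.18% lower. Rdh13 was at 1.25 (38.3 in 3-NP, 15.0 in saline) and Cyp26b1, a retinoic acid hydroxylase, at 1.05 (30.1 in 3-NP, 13.5 in saline). Rdh10 was on the higher side again, at 0.76 with 59.9 in 3-NP and 32.9 in saline.

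Among mitochondrial members, 3 of 4 were lower at day 1 and Aldh4a1 was not. Aldh7a1, which oxidises the semialdehyde of lysine breakdown, had 345 in 3-NP and 712 in saline, a ratio of -1.49. Of all measured genes 2.42% had a ratio as low or lower. Aldh2, the main acetaldehyde-clearing enzyme of mitochondria, had 199 in 3-NP and 370 in saline, a ratio of -1.34. Aldh6a1, the methylmalonate semialdehyde dehydrogenase, had 109 in 3-NP and 165 in saline by its brighter probe set, at -1.04, and 69.1 in 3-NP and 111 in saline by its dimmer one, at -1.12. Both probe sets carry the same transcript accession, and their ratios differed by 0.09. Aldh6a1 sat just past the 2-fold line. It crossed to -0.96 when the hybridisation spike-ins or all probe sets set the centre, or with no filter on dim signals. As deposited it was at -0.60. Aldh4a1, the last step of proline breakdown, had 217 in 3-NP and 149 in saline, which is 1.45-fold higher as deposited and 0.10 relative to the median gene, less than the SD between probe sets.

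**Figure D3:**
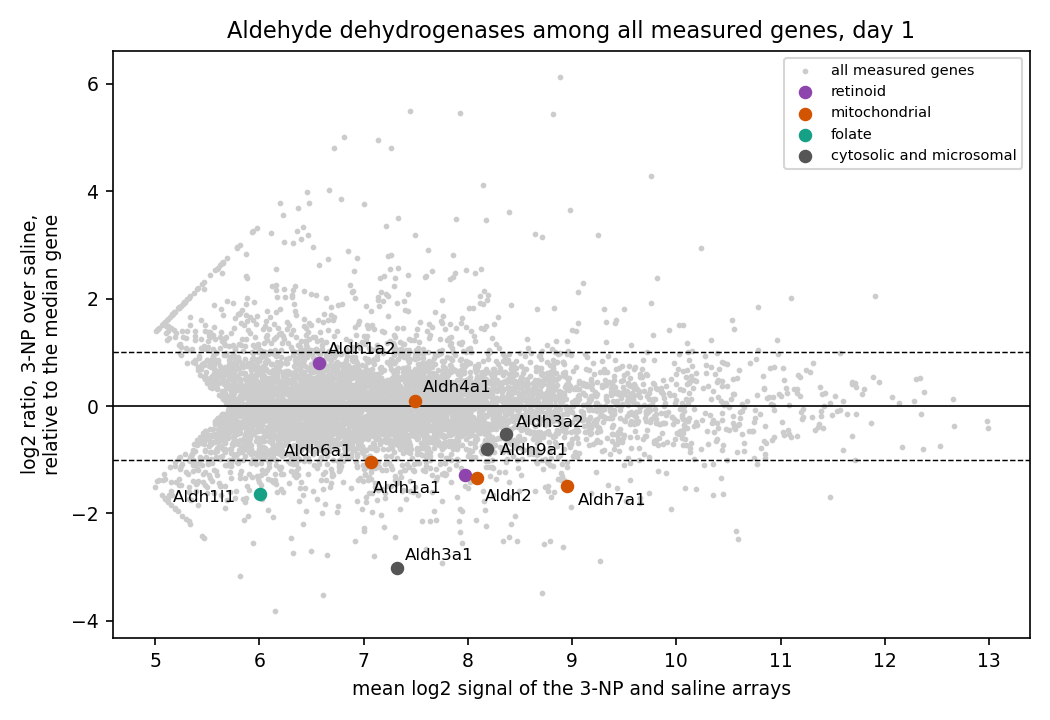
Relative log2 ratio of 3-NP over saline at day 1 (vertical) against the mean log2 signal of both arrays (horizontal) for 6533 measured genes (grey) and the 10 aldehyde dehydrogenases (coloured by role). Aldh3a1 lies near the lower edge of the cloud, as the 5th lowest gene, and Aldh4a1 lies in its middle.

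Enzymes that act beside the mitochondrial members were also on the lower side. Of 24 genes of branched-chain amino acid breakdown, 21 were on the day 1 design and 19 were measured, of which 7 were lower and 0 higher, with a median of -0.59 and 16 of 19 below 0. As deposited 0 were lower and 1 was higher, with a median of -0.15. Among all measured genes 6.47% were lower and 7.76% higher, or 2.62% and 17.9% as deposited. The list was chosen with earlier results of these data known. The subunit genes of methylcrotonyl-CoA carboxylase in leucine breakdown, Mccc1 and Mccc2, were at -1.41 and -1.38. Pcca, a subunit of propionyl-CoA carboxylase that takes up the product of Aldh6a1, was at -1.38 with 95.0 in 3-NP and 182 in saline, while its partner Pccb was at -0.51. Bckdha, of the branched-chain ketoacid dehydrogenase, was at -1.37 and the acyl-CoA dehydrogenase gene Acadsb at -1.26. The steps just before Aldh6a1 in valine breakdown, named after their values were seen, were under 2-fold apart, with Hibch at -0.59 and Hibadh at -0.47. At day 3 only 3 of these genes were measured, and Mmut, the methylmalonyl-CoA mutase gene, was lower by its brightest probe set at -1.25 and by others at -1.11 and -0.65. Of all genes measured at day 3, 8.18% were lower.

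For proline, lysine, choline and carnitine, 10 of 14 listed genes were on the day 1 design, 7 were measured, 4 were lower and 0 higher, with a median of -1.26. As deposited 3 were lower, where 2.62% of all measured genes were, against 6.47% relative to the median gene. Prodh, the first enzyme of proline breakdown, had 56.5 in 3-NP and 166 in saline, a ratio of -1.995, against 0.10 for Aldh4a1 further along the same route. Prodh had a dimmer probe set too, at the floor in 3-NP and in saline. Aass, which opens the lysine route that Aldh7a1 continues, had 16.9 in 3-NP, under the floor, and 229 in saline, and was at least 10.4-fold lower as deposited, taking the floor for the 3-NP signal, or at least 14.1-fold lower relative to the median gene. At day 3 none of the aldehyde dehydrogenases of these routes was on the design. Choline dehydrogenase, encoded by Chdh, then had 713 in 3-NP and 204 in saline, a ratio of 1.71. Of 5 measured genes 1 was higher and 1 lower, with a median of 0.11. Over all measured genes at day 3 the shares were 9.21% higher and 8.18% lower.

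**Figure D4:**
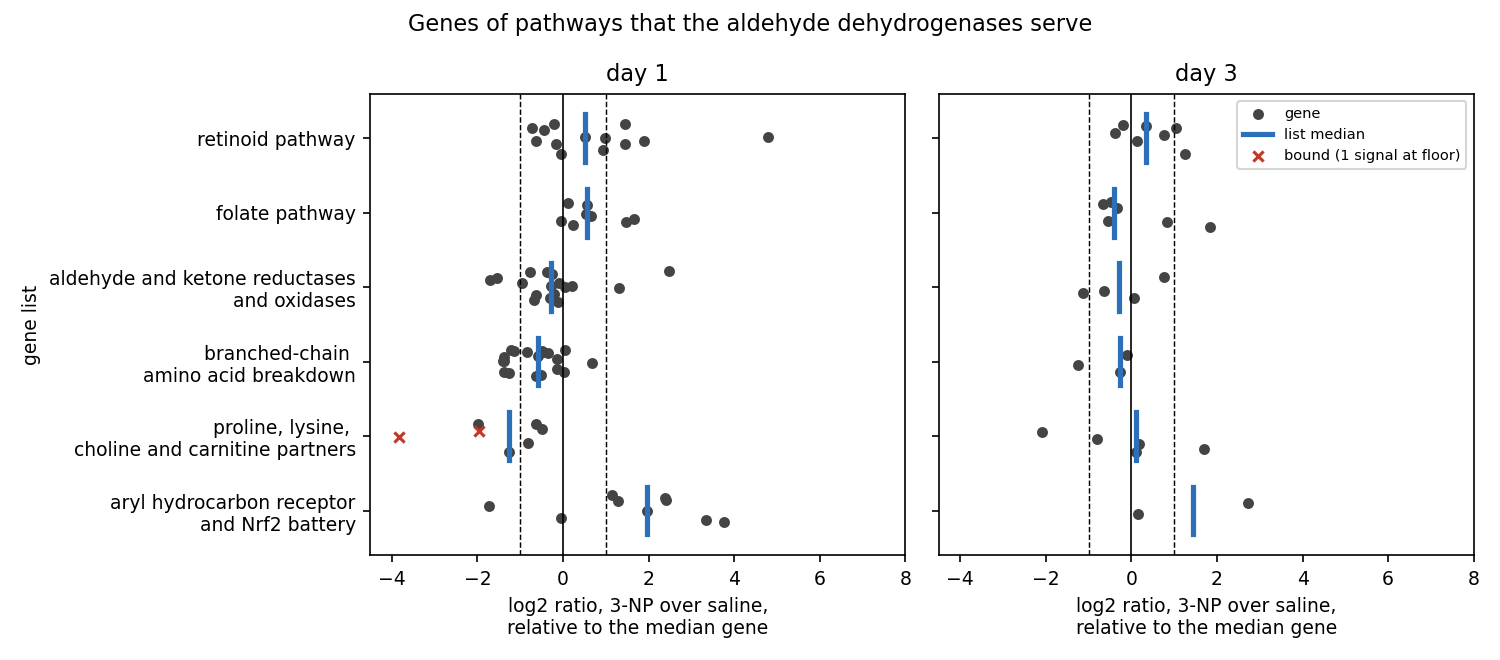
Relative log2 ratio of 3-NP over saline (horizontal) for the measured genes of 6 gene lists around the aldehyde dehydrogenases (rows) at day 1 (left) and day 3 (right), with list medians as blue bars and bounds, where 1 signal was at the floor, as crosses. At day 1 the medians of the proline and lysine list (-1.26) and the branched-chain list (-0.59) lie left of 0 and that of the aryl hydrocarbon receptor and Nrf2 list (1.97) right of it.

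The folate member, Aldh1l1, which feeds formyl groups into carbon dioxide and marks glial cells in brain, had 42.4 in 3-NP and 97.3 in saline. Its ratio was -1.64, or 3.11-fold lower, and 2.29-fold lower as deposited. The 3-NP signal was under that array's median of 60.7 but above the floor of 21.98. Of 28 folate genes, 21 were on the day 1 design and 8 were measured, of which 0 were lower and 2 higher, with a median of 0.56. As deposited 4 were higher, where 17.9% of all measured genes were, against 7.76% relative to the median gene. Shmt2, the mitochondrial serine hydroxymethyltransferase, was at 1.67 with 218 in 3-NP and 50.8 in saline, and Fpgs, which adds glutamates to folate, at 1.47 with 91.8 in 3-NP and 24.4 in saline. Mthfd1, which makes the formyl-folate that Aldh1l1 consumes, was at 0.13. The folate dehydrogenase had a ratio below those of all 8 measured folate genes, the lowest of which was Ggh at -0.04. This too is a description, since Aldh1l1 was chosen by that ratio.

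At day 3, Aldh1l2, the mitochondrial counterpart of Aldh1l1, had 36.5 in 3-NP and 11.3 in saline, a ratio of 1.59. Its saline signal was under the median of 18.7 and just above the floor of 9.21, so the fold rests on a dim value. Among 6 measured folate genes 1 was higher and 0 lower, with a median of -0.41. Of all measured genes at day 3, 9.21% were higher and 8.18% lower. Fpgs was the higher folate gene, at 1.85 with 230 in 3-NP and 59.7 in saline.

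The cytosolic and microsomal members ran from near the median gene to the lower edge. Aldh3a1, known for its abundance in cornea and for protection against aldehydes, had 65.1 in 3-NP and 391 in saline. It was 6.00-fold lower as deposited and 8.14-fold lower relative to the median gene, a ratio of -3.02 and the 5th lowest of 6533 measured genes. Aldh3a2, the fatty aldehyde dehydrogenase gene, had 320 in 3-NP and 338 in saline, a ratio of -0.51 and almost level as deposited at -0.08. Both lie on chromosome 10 of the rat, with 2 annotated genes between them, and their ratios lay -2.51 apart (Aldh3a1 minus Aldh3a2), again as a description. Aldh9a1, which makes the carnitine precursor butyrobetaine, had 258 in 3-NP and 330 in saline, a ratio of -0.79.

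Carnitine synthesis genes on either side of Aldh9a1 were lower by more. Tmlhe, the first step, had 29.9 in 3-NP and 52.8 in saline, a ratio of -1.26. Bbox1, the last step, had 18.4 in 3-NP, under the floor, and 63.2 in saline, and was at least 2.88-fold lower as deposited, or at least 3.899-fold lower relative to the median gene. At day 3 Bbox1 was above the floor in both arrays, at 44.1 in 3-NP and 176 in saline, with a ratio of -2.10. The carnitine uptake gene Slc22a5 was at -0.49 at day 1.

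Aldh3a1 is a member of the gene battery that the aryl hydrocarbon receptor induces in rodent liver, together with Nqo1. In a list that pools this battery with the Nrf2 response, most measured genes were higher in 3-NP. Among targets of the receptor, Nqo1 and Cyp1b1 were higher, Tiparp lay near the median gene, and Cyp1a1 and Cyp1a2 failed the filter. Aldh3a1 was lower, but it was chosen by that ratio. Of 17 listed genes, 13 were on the day 1 design, 9 were measured, 7 were higher and 1 was lower, with a median of 1.97. By the same measure 7.76% of all measured genes were higher and 6.47% lower. Nqo1, a quinone reductase, had 553 in 3-NP and 39.9 in saline, a ratio of 3.35, where Aldh3a1 was at -3.02. The list does not divide its genes between the receptor and Nrf2, and which of them this contrast belongs to was not tested. Cyp1b1 was at 2.40, with 620 in 3-NP and 86.5 in saline. Gstm1, a glutathione transferase gene, was the lower one, at -1.73 with 60.1 in 3-NP and 148 in saline, the same direction as Aldh3a1. Cyp1a2, another receptor target, failed the filter and was at the floor in 3-NP, with 23.5 in saline. Cyp1a1, the best known target of the receptor, was at the floor in both arrays, and Tiparp, another target, was at -0.04. Hmox1 (3.77), Srxn1 (2.39) and Txnrd1 (1.97), of the Nrf2 response, were the other leading genes. Of these, Srxn1 alone was also measured at day 3, at 2.72 with 92.6 in 3-NP and 13.1 in saline, and Tiparp was then at 0.16.

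Other enzymes of aldehyde and ketone metabolism were listed too, among them the monoamine oxidase genes, whose products are aldehydes. Of 22 listed reductases, oxidases and transferases, 19 were on the day 1 design and 17 were measured, of which 2 were higher and 2 lower, with a median of -0.29 (0.15 as deposited). For all measured genes the shares were 7.76% higher and 6.47% lower. With so few genes called, nothing particular to the list is read from these counts. Relative to the median gene 4 of the 17 lay above 0 and 13 below. The aldo-keto reductase genes Akr1b8 and Akr1b1 were at 2.48 and 1.32. Akr1b8 had 648 in 3-NP and 85.6 in saline, and Akr1b1, the aldose reductase gene, 1611 in 3-NP and 476 in saline. Akr7a3, an aflatoxin aldehyde reductase gene, was at -1.71 with 34.98 in 3-NP and 84.6 in saline, and Ptgr1, which reduces alkenals and prostaglandins, at -1.54 with 50.4 in 3-NP and 108 in saline. At day 3, 4 were measured, 1 was lower and 0 were higher, with a median of -0.29. The lower one was Ptgr2, at -1.13 and -1.68 by its probe sets. Among all genes measured that day 8.18% were lower and 9.21% higher.

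Other members of the family were measured too. Leaving them off the list was part of a choice made with these day 1 ratios known, so at day 1 they are no independent comparison for it. At day 1, 3 were measured and 0 were 2-fold apart, with a median of -0.03. Aldh5a1, the succinate semialdehyde dehydrogenase gene, had 33.8 in 3-NP and 47.9 in saline, a ratio of -0.94. Aldh16a1 was at -0.03 and Aldh18a1, which makes proline and ornithine precursors, at 0.14. At day 3, 5 were measured, 1 was higher and 1 lower, where 9.21% of all measured genes were higher and 8.18% lower. The median of the 5 was -0.12. As deposited 2 were higher and 1 lower, where 10.9% of measured genes were higher and 6.42% lower. Aldh5a1 was lower there, with 33.0 in 3-NP and 89.0 in saline at a ratio of -1.53, and 13.1 in 3-NP and 21.1 in saline at -0.79 by a dimmer probe set. Its probe sets thus lay below the median gene on both designs, by 0.79 to 1.53 on the log2 scale. Aldh1b1, another mitochondrial acetaldehyde dehydrogenase gene, had 22.5 in 3-NP and 10.9 in saline, a ratio of 0.95. Aldh3b1 was at -0.64, and Aldh1a3, the third retinaldehyde dehydrogenase gene, had 102 in 3-NP and 104 in saline, a ratio of -0.12.

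**Figure D5:**
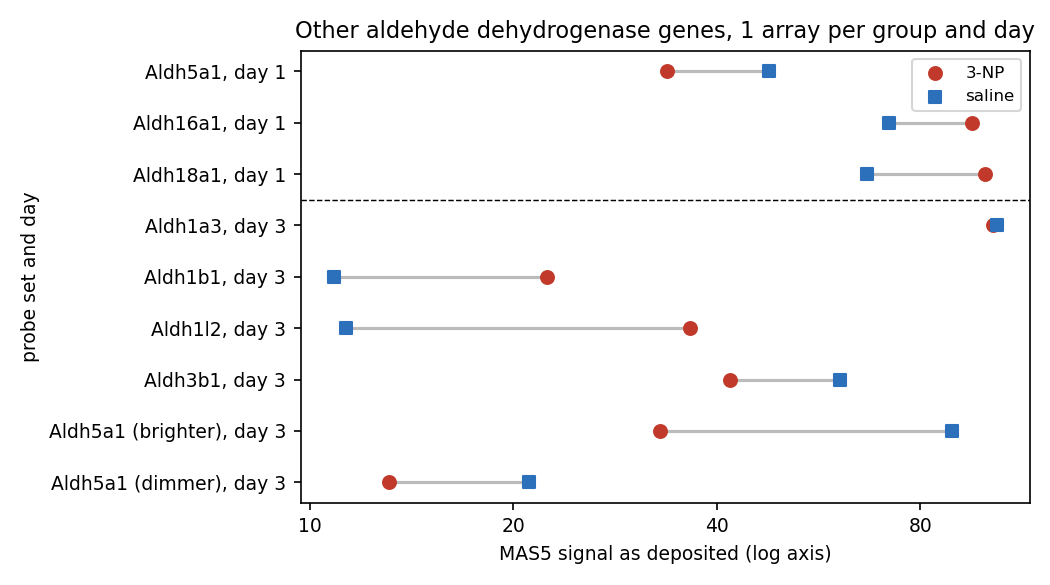
MAS5 signals as deposited (log axis) of aldehyde dehydrogenase genes outside the list on the 3-NP (circles) and saline (squares) arrays, at day 1 above the dashed line and at day 3, on the other array design, below it. Aldh5a1 lies lower in 3-NP by each of its probe sets, and Aldh1l2 shows the widest gap in the other direction, 36.5 in 3-NP and 11.3 in saline.

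Among markers of the cell types the dissection could hold, those of fibrocytes, of stria and melanocytes and of bone and cartilage had medians below 0 at day 1, as the 10 dehydrogenases did, while the medians of the other 6 lists were above 0. Their part in the dehydrogenase ratios was not tested. Over all measured genes at day 1, 6.47% were lower and 7.76% higher, or 2.62% and 17.9% as deposited. Of 15 spiral ligament fibrocyte markers 10 were measured, 5 were lower and 1 higher (median -1.004), with summed signals of 10790 in 3-NP and 16548 in saline, Car3 at -2.57 and Aqp1 the higher one at 1.46. Of 14 stria and melanocyte markers 8 were measured, 7 were lower and 0 higher (median -1.42), with sums of 1536 in 3-NP and 3034 in saline, Lrp2 at -1.69 and Kcnj10 at the floor in both arrays. Of 14 bone and cartilage markers 10 were measured, 7 were lower and 0 higher (median -1.34), with sums of 5841 in 3-NP and 8444 in saline, Omd at -2.45, and Comp and Sost at the floor. Epithelial markers went the other way, with 3 of 9 measured genes higher and 1 lower (median 0.79), sums of 7809 in 3-NP and 2939 in saline, Epcam at 1.51, Muc1 the lower one at -1.11, and Krt5 and Scgb1a1 at the floor. As deposited, 3 fibrocyte markers were lower and 1 higher, 3 stria and 4 bone markers were lower and 0 higher, and 5 epithelial markers were higher and 0 lower.

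The remaining markers at day 1 were on the higher side or near the median gene. Among endothelial and mural markers 4 of 6 were higher and 1 lower (median 1.51), with Mcam at least 3.59-fold higher relative to the median gene (at least 4.86-fold as deposited) and Rgs5 the lower one at -1.14. Another Mcam probe set, which failed the filter, was above the floor in both arrays. It had 53.4 in 3-NP and 22.3 in saline, a ratio of 0.82, under 2-fold. Macrophage markers had 2 of 5 higher (median 0.34), led by Lgals3 at 2.47, and neuron and Schwann markers 3 of 10 (median 0.33), led by Prph at 1.54. Skeletal muscle (4 measured, median 0.46, Mybpc2 at 0.80) and erythrocyte markers (2 measured, median 0.63, Alas2 at 0.74) had 0 genes 2-fold apart relative to the median gene. As deposited, 2 muscle and 1 erythrocyte marker were higher, as were 5 endothelial and mural, 2 macrophage and 4 neuron and Schwann markers, with 0 lower in these 5 lists. At day 3, where only other members of the family were measured, 3 of 6 stria and melanocyte markers were lower and 1 was higher (median -1.08). The higher one was Tyrp1, with saline at the floor and 0.69 by a dimmer probe set. Every other cell type list had at most 2 measured genes. Shares over all measured genes at day 3 were 8.18% lower and 9.21% higher.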

How the data were processed

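Affymetrix arrays hybridised with biotin-labelled cRNA gave 1 value per probe set. The deposited values are signal intensities on a linear scale made with MAS5, per the submitters' processing notes. Their scaling target is not given in the sources used. The 4 arrays form 4 groups of 1, taken from the labels, and the days were run on different designs, so signals were compared only within a day. Precision is limited by the number of arrays.

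Signals under an array's 30th percentile (21.98 in 3-NP and 17.1 in saline at day 1, 9.83 in 3-NP and 9.21 in saline at day 3) were set to it. A probe set passed if either array of the pair had it at or above the array's 50th percentile, and all 11 probe sets of the listed genes passed. The brightest probe set represented a gene. Others are given beside it for the aldehyde dehydrogenases, but not for every gene of the other lists. Log2 ratios were centred on the median measured gene. A ratio with 1 signal at the floor is a bound. No p-value was computed.

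Symbols came from the platform annotation, updated by gene identifier to RefSeq (GRCr8). At day 1, 12783 probe sets had 1 symbol, 312 several and 2771 none, and at day 3 the numbers were 7564, 100 and 7612. The members, the 7 pathway lists and the 9 marker lists were chosen with earlier results of these data known. For each pathway list and day, up to 5 members furthest from 0 among those 2-fold apart are named, otherwise the member furthest from 0. Other genes were chosen after their values were seen (Pccb, Hibch, Hibadh, Mthfd1, Ggh, Slc22a5, Tiparp, Cyp1a1, Cyp1a2, Gstm1, Aqp1, Muc1, Rgs5, Tyrp1, Rdh10 at day 3, the retinoid genes at the floor and those compared across days). Alternatives covered scaling, floor, filter, probe set choice and threshold. Scripts ran in Python 3.11.15 with pandas 2.3.3, numpy 2.4.6 and statsmodels 0.14.6 and were tested on simulated data.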

Additional observations from a re-analysis of the deposited data

How the results depend on the processing

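Each result was recomputed under 11 other settings, 1 of them (centring on all single-symbol probe sets) chosen after seeing the data. As deposited, with no centring, the listed genes at day 1 had 3 lower and 1 higher and a median log2 ratio of -0.72. The pathway lists together had 6 genes lower, against 14 relative to the median gene. Of all 6533 measured genes 171 were lower as deposited, against 423 relative to the median gene. With a threshold of 0.58 on the log2 ratio, 1 listed gene was higher and 26 pathway genes were lower at day 1. At day 3, 8 pathway genes were lower and 10 higher, against 4 and 6 at the 2-fold line. By the 0.58 threshold, 1098 of all 6533 measured genes were lower and 1127 higher at day 1. For all 3972 genes at day 3 it gave 796 lower and 767 higher, against 325 and 366 at the 2-fold line. These shifts follow from how each setting is built. No ratio of a listed gene changed sign under the 10 settings that alter a ratio. Aldh3a1 ranged from -3.03 to -2.59, Aldh1l1 from -1.64 to -1.20 and Aldh7a1 from -1.49 to -1.05, past 2-fold each time. Aldh1a1 (-1.28 to -0.84) and Aldh2 (-1.34 to -0.90) were under 2-fold as deposited only, and Aldh6a1 (-1.08 to -0.60) in 4 settings. With 1 array per group no array could be left out, and hybridisation and animal variation are not measured. No paired analysis was possible because each group holds 1 array.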

Other observations

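Of the pathway and family genes examined, 13 were measured on both array designs, by different probe sets. For 11 of them the day 1 and day 3 ratios of 3-NP over saline were both above or both below their day's median gene, or 84.6%, where the same held for 892 of all 1246 genes measured on both designs, or 71.6%. With 13 genes nothing particular to them is read from that. Bbox1 was at -2.10 at day 3 and at a bound of -1.96 at day 1, Srxn1 at 2.72 at day 3 and 2.39 at day 1, and Fpgs at 1.85 at day 3 and 1.47 at day 1. Gcdh, which acts late in lysine breakdown, was at -0.79 at day 3 and -0.80 at day 1. Bckdha was at -0.10 at day 3, against -1.37 at day 1. The pair on opposite sides was Maoa, a monoamine oxidase gene whose products are aldehydes, at -0.64 at day 3 and 0.06 at day 1, and Tiparp, at 0.16 at day 3 and -0.04 at day 1. Maoa at day 1 and Tiparp on each day lay within the SD between probe sets (0.35 at day 1, 0.44 at day 3), so their sides are not settled. These ratios were set side by side and their differences between days were not tested.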
